A study of Mus musculus with 64 samples.

Results

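Chromatin occupancy of SOX2 and of β-catenin was compared within a single condition, the SOX2-OFF cells, in 6 of the 64 samples of the series: 3 SOX2 and 3 β-catenin immunoprecipitations, taken by their titles. SOX2-OFF cells were a clonal mouse embryonic stem cell line of HM1 (129) origin in which both endogenous Sox2 alleles had been disrupted (Sox2-/-) and a Sox2 cDNA transgene was driven by doxycycline. They were grown with FGF (bFGF) and the WNT secretion inhibitor LGK974, then with the WNT pathway agonist CHIR99021 added, and collected at 72 h, with doxycycline withdrawn during the differentiation. SOX2-ON cells, used for comparison, were the same line given the same treatment with doxycycline kept at 1 µg per ml. CEpiLCs, the caudal epiblast-like cells, were wild-type HM1 cells differentiated in the same way, and naive ESCs were wild-type HM1 cells held in 2i medium. Each group held 3 libraries labelled as biological replicates.

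SOX2, which maintains pluripotent cells and neural progenitors, binds short sequences through its HMG domain, often beside the POU factor OCT4. β-catenin has no DNA-binding domain of its own and reaches chromatin mainly through the TCF/LEF family, which acts as the end point of WNT signalling and recognises a sequence that partly resembles that of SOX proteins. In the caudal epiblast, WNT signalling accompanies the loss of pluripotent identity and the onset of primitive streak and posterior genes, among them T, Cdx2 and the Hox genes.

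Strong sites of SOX2 alone, of β-catenin alone and of both are shown here by their RefSeq sequence (GRCm38.p6), so that the letters counted below can be seen in place. They were picked among the strongest sites of each class and are not typical of it: of the 518 sites of SOX2 alone described below, 20 held the composite letters and 236 (45.6%) held neither a SOX nor a TCF sequence, as the window near Mmp16 does. These counts overlap, since the site near Tcf7 is in both. Classes refer to the equal-length lists defined below, so a site labelled without a target can hold peaks of that target in the full lists. Each window holds 121 bases of the plus strand centred on the summit. Capitals mark matches, on either strand, to a SOX sequence (CATTGT or CTTTGT), a TCF sequence (CTTTGAA or CTTTGAT) or the composite OCT-SOX letters TTGTNATGCAAA, where N is any base. The composite letters were chosen after the windows of the strongest SOX2 sites had been seen, and a match is a description of letters and not a proven binding site.
SOX2 without β-catenin, nearest gene Ermard, chr17:15208231-15208351: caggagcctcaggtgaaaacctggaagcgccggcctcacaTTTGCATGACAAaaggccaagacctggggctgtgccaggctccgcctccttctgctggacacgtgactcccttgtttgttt
SOX2 without β-catenin, nearest gene Tcf7, chr11:52286507-52286627: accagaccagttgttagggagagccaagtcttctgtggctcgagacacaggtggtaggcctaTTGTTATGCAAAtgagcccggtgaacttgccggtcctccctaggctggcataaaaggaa
SOX2 without β-catenin, nearest gene Mmp16, chr4:17092253-17092373: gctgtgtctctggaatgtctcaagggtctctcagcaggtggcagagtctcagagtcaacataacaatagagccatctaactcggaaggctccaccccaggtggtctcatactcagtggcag
β-catenin without SOX2, intron of Slc38a4, chr15:97024437-97024557: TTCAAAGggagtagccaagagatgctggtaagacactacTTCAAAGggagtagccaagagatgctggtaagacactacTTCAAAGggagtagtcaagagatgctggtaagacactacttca
β-catenin without SOX2, nearest gene Bmper, chr9:23045595-23045715: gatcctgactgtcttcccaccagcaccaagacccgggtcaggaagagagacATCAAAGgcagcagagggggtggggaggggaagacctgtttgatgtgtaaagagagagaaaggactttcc
Both, nearest gene Med13l, chr5:119055611-119055731: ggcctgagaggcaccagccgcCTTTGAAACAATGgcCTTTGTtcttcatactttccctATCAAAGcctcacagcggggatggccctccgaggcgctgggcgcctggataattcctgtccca
Both, intron of Chn2, chr6:54096991-54097111: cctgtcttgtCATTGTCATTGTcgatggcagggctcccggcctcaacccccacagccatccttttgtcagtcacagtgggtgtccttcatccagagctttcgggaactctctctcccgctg
Both, nearest gene Lcor, chr19:41441521-41441641: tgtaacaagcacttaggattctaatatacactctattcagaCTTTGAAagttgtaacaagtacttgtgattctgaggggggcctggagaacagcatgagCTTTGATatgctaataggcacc

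The lists of the 6 libraries differed widely in length, and the difference lay within each target. SOX2 lists held 56263, 375980 and 224107 peaks in replicates 1 to 3, and β-catenin lists held 415244, 3423 and 32581. The log10 peak number was 5.23 ± 0.43 for SOX2 and 4.56 ± 1.04 for β-catenin (SD, n = 3), and the groups overlapped (two-sided exact permutation p = 0.5, the smallest possible being 0.1). The number of peaks therefore gave no measure of how much SOX2 or β-catenin was bound. Lists were cut to the 3423 peaks of highest deposited −log10 p-value in each library, the length of the shortest list, and these are called equal-length lists below. Read depth was not given in the files, so no interval for the depth of a single peak can be stated.

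SOX2 peaks remained after doxycycline withdrawal. The lowest-ranked peak of the equal-length SOX2 lists had a −log10 p-value of 11.1, 23.0 and 28.7 in replicates 1 to 3. The median deposited fold over local background in these lists was 8.22, 13.7 and 15.8 for SOX2. It was 16.9, 6.12 and 19.1 for β-catenin. Replicate 1 of SOX2 also held peaks over coding exons of Tfap2a, Tfap2c and Tcf7l1, which took 11 of its 12 highest ranks with folds up to 267. Its equal-length list held 21 such peaks and that of β-catenin replicate 1 held 17, while the other 4 equal-length lists held 0. None of the sites that define the classes below lay over these exons. Over the coding exon of Sox2 itself, SOX2 replicate 3 held 1 peak of fold 2.99 and β-catenin replicate 3 held 1 of fold 2.93. The other 4 libraries held 0 there. With doxycycline, the SOX2-ON SOX2 libraries held peaks of fold 4.57, 3.97 and 5.67 over that exon. Wild-type SOX2 libraries held folds of 4.42 and 5.88 in replicates 1 and 3 of CEpiLC and 8.94 in replicate 1 of naive ESC, and no peak in the others. Some β-catenin libraries of these conditions held peaks there too, of fold up to 8.13 in SOX2-ON replicate 3. A peak over the exon is no measure of SOX2 protein, and the amount of SOX2 left in these cells was not measured here.

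In equal-length lists, libraries of the same target shared more of their covered sequence on average than libraries of different targets. The Jaccard index, the shared length over the length covered by either list, was 0.237, 0.294 and 0.271 for the 3 pairs of SOX2 libraries. It was 0.263, 0.485 and 0.246 for the 3 pairs of β-catenin libraries. The 9 pairs across targets ranged from 0.111 to 0.276. The mean was 0.299 within targets and 0.171 between them, a difference of 0.129 (one-sided exact permutation p = 0.1, the smallest these 10 distinct splits can give). Over all deposited peaks the difference was 0.00572 (exact permutation p = 0.2), and with lists of 20000 peaks without β-catenin replicate 2 it was 0.0427 (exact permutation p = 0.2). The targets were not fully apart, since SOX2 replicate 3 shared 0.259 and 0.276 with β-catenin replicates 1 and 3, close to the 0.271 and 0.294 it shared with the other SOX2 libraries. SOX2 replicate 2 stood at the other end, with 0.111 to 0.113 shared with β-catenin.

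**Figure D1:**
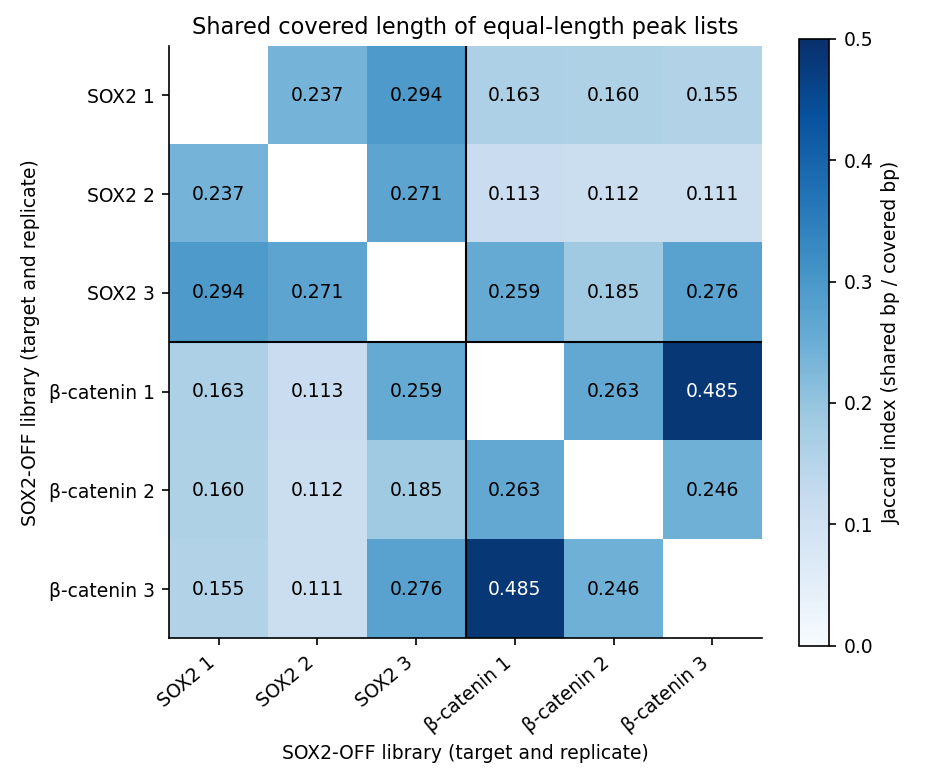
Jaccard index (shared base pairs over covered base pairs) for each pair of the 6 SOX2-OFF libraries in equal-length lists of 3423 peaks, with black lines between SOX2 and β-catenin. Pairs of SOX2 libraries lie between 0.237 and 0.294 and pairs of β-catenin libraries between 0.246 and 0.485, while SOX2 replicate 3 reaches 0.276 with β-catenin replicate 3.

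The 6 equal-length lists merged into 9602 sites. SOX2 was present in 3 of 3 libraries and β-catenin in 0 of 3 at 518 sites, 5.39% of all sites. β-catenin was present in 3 of 3 and SOX2 in 0 of 3 at 490 sites, 5.1% of all sites. A further 488 sites held all 6 libraries. Sites of SOX2 alone numbered 798 without SOX2 replicate 1, shared sites 758 without SOX2 replicate 2, and sites of β-catenin alone 790 without SOX2 replicate 3 and 953 without β-catenin replicate 2. Classes of near-equal size followed from lists of equal length and are not a measure of relative occupancy. At the 488 shared sites the median SOX2 summit lay 21 bp from the median β-catenin summit, and 91.8% lay within 100 bp. Summits of 2 SOX2 libraries at such a site lay a median of 24 bp apart and those of 2 β-catenin libraries 20 bp apart, against 28 bp for a SOX2 and a β-catenin library.

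The sequence under the summits separated the targets. Among SOX2 peaks of the equal-length lists, 43.3%, 47.8% and 43.5% held a SOX sequence within 100 bp of the summit. Among β-catenin peaks the share was 31.4%, 33.9% and 33.7%. All 3 SOX2 libraries were above all 3 β-catenin libraries, with means of 44.9% ± 2.57 and 33.0% ± 1.37 (SD, n = 3), a difference of 11.9 percentage points (two-sided exact permutation p = 0.1, adjusted p = 0.143 over 10 measures). Over all deposited peaks the difference was -0.578 points (exact permutation p = 0.8). Windows of the same size 5000 bp to each side of the summits held a SOX sequence in a mean of 26.1% for SOX2 and 27.0% for β-catenin.

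The TCF sequence ran the other way and by more. It was found under 19.9%, 14.3% and 28.3% of SOX2 peaks and under 59.5%, 50.6% and 61.4% of β-catenin peaks. The groups did not overlap, with means of 20.9% ± 7.04 and 57.2% ± 5.74 (SD, n = 3; two-sided exact permutation p = 0.1, adjusted p = 0.143). The difference was -36.3 points in equal-length lists, -19.7 points over all deposited peaks and -17.6 points with lists of 20000 peaks without β-catenin replicate 2 (exact permutation p = 0.1 each). Flanking windows held it in 8.55% and 8.74%. SOX2 peaks thus also exceeded their flanks in the TCF sequence, most in replicate 3, the SOX2 library that shared most with β-catenin.

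For the T-box and CDX letters the groups overlapped. The T-box letters GGTGTG lay under 15.6% ± 1.54 of SOX2 peaks and 17.3% ± 1.47 of β-catenin peaks (exact permutation p = 0.2, adjusted p = 0.25). The CDX letters TTTATTG or TTTATGG lay under 3.96% and 3.95%. These were below the shares of the flanking windows, 7.63% and 7.79%. The FOXH1 letters ATCCACA lay under 3.32% ± 0.508 of SOX2 peaks and 2.35% ± 0.161 of β-catenin peaks, with 3.55% and 3.35% in the flanks. The CTCF letters CCANNAGNNGGC lay under 1.78% ± 0.0773 and 1.43% ± 0.0773, with 1.77% and 1.56% in the flanks. In both cases the groups did not overlap (SD, n = 3; exact permutation p = 0.1 and adjusted p = 0.143 each). The OCT-SOX letters lay under 1.40%, 1.75% and 1.17% of SOX2 peaks and under 0.292%, 0.292% and 0.204% of β-catenin peaks, and are given without a test. In the RefSeq set of 32851 promoter windows of 300 bases, they were present in 0.0365%, the SOX sequence in 28.6% and the TCF sequence in 8.65%.

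**Figure D2:**
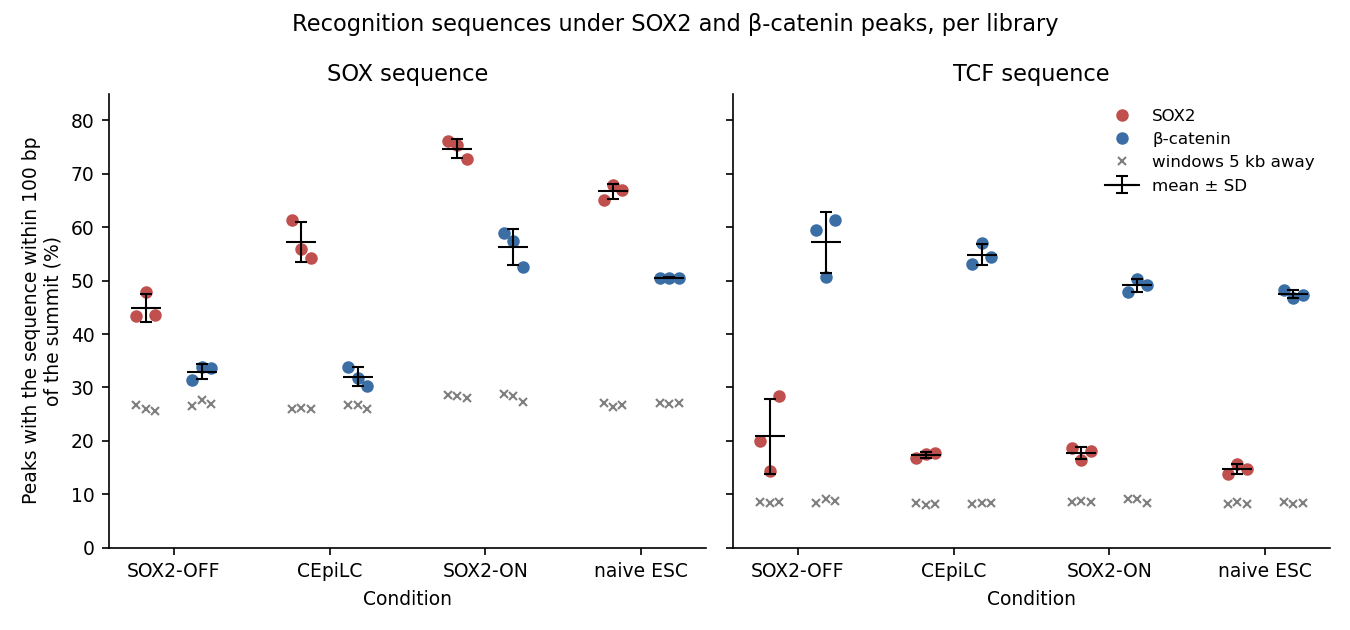
Share of peaks (%) with a SOX or a TCF sequence within 100 bp of the summit in equal-length lists, one point per library of SOX2 or β-catenin in 4 conditions, with mean ± SD and grey crosses for windows 5 kb away. In SOX2-OFF the SOX share was 43.3% to 47.8% for SOX2 and 31.4% to 33.9% for β-catenin, and the TCF share was at most 28.3% for SOX2 and at least 50.6% for β-catenin.

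Sorting sites by who occupied them sharpened both contrasts. A SOX sequence lay at 274 of the 518 sites held by SOX2 alone (52.9%), at 110 of the 490 held by β-catenin alone (22.4%) and at 240 of the 488 held by both (49.2%). The flanks of the sites of β-catenin alone held a SOX sequence in 27.9%, more than the sites themselves. A TCF sequence lay at 23 sites of SOX2 alone (4.44%), at 378 of β-catenin alone (77.1%) and at 237 of both (48.6%). The flanks of the sites of SOX2 alone held a TCF sequence in 7.63%, more than the sites themselves. Of all merged sites 37.3% held a SOX sequence and 31.7% a TCF sequence. At the shared sites 100 held both sequences, which was 20.5% against 9.74% of all merged sites, and 111 held neither. Neither sequence was found at 236 sites of SOX2 alone (45.6%) and at 81 of β-catenin alone (16.5%), against 40.7% of all merged sites. Only the exact letters were counted, so these sites can hold other forms of a SOX element. The site of SOX2 alone near Tcf7 holds the composite letters and is among the 236. The OCT-SOX letters were found at 20 sites of SOX2 alone (3.86%), at 0 of β-catenin alone and at 4 of both (0.820%), against 68 of all 9602 merged sites (0.708%). A longer form that contains these letters was found at 9, 0 and 2 sites in the same order. Of the 4 strongest sites of SOX2 alone 3 carried the OCT-SOX letters, at Ermard, Nrarp and Tcf7. The letters were chosen after the windows of the strongest SOX2 sites had been seen, so these 3 matches are not an independent result. All shares given here by class are over sites of the same libraries, which are not replicates, so no test is attached.

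The binding partners of β-catenin followed it. In the equal-length lists of the same cells, TCF7L1 (labelled TCF3), a TCF factor known mainly as a repressor, was present in at least 2 of 3 libraries at 374 of the 490 sites of β-catenin alone (76.3%) and at 454 of the 488 shared sites (93.0%). It was present at 13 of the 518 sites of SOX2 alone (2.51%) and at 25.1% of all merged sites. LEF1 was found in at least 2 of 3 libraries at 29.8% of the sites of β-catenin alone, 53.3% of the shared sites and 0.193% of the sites of SOX2 alone, and TCF7L2 (labelled TCF4) at 23.5%, 44.7% and 3.47% in the same order. Of all merged sites 10.3% held LEF1 and 8.50% held TCF7L2 by this rule. At least 1 of these 3 factors met this rule at 86.7% of the sites of β-catenin alone, 95.1% of the shared sites and 6.18% of the sites of SOX2 alone.

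SOX2 alone was found nearer to gene starts. Summits within 1000 bp of the start of a protein-coding gene made up 16.4%, 24.7% and 12.8% of SOX2 peaks and 7.71%, 6.84% and 6.34% of β-catenin peaks. All SOX2 libraries were above all β-catenin libraries, 17.97% ± 6.10 against 6.96% ± 0.695 (SD, n = 3; exact permutation p = 0.1, adjusted p = 0.143). Over all deposited peaks the difference was -1.02 points (exact permutation p = 0.7). Promoters made up 144 of the 518 sites of SOX2 alone (27.8%), 49 of the 490 of β-catenin alone (10%) and 28 of the shared 488 (5.74%). Of all merged sites 15.5% were promoters. Mean GC content within 100 bp of the summit was 52.0% ± 0.813 for SOX2 peaks and 49.6% ± 0.876 for β-catenin peaks.

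The site of SOX2 alone with the lowest worst rank lay 155232 bp from the start of Ermard, at chr17:15207726-15208677. Its SOX2 folds were 52.3, 77.6 and 80.3. In the full β-catenin lists it held folds of 5.33 and 6.74 in replicates 1 and 3 and no peak in replicate 2. A site 761145 bp from Mmp16, chr4:17092059-17092589, had SOX2 folds of 37.7, 75.2 and 75.1. The site at the promoter of Nrarp, a feedback inhibitor of Notch signalling that is known to act on LEF1, was at chr2:25180436-25180990 with SOX2 folds of 34.8, 58.3 and 47.9. No full β-catenin list held a peak there. All 4 strongest sites of this class held SOX2 in 3 of 3 libraries of CEpiLC and of SOX2-ON and in at least 2 of 3 of naive ESC.

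The site of β-catenin alone with the lowest worst rank lay 16889 bp from 1700001O22Rik, at chr2:30784330-30785285, with β-catenin folds of 63.1, 19.1 and 68.9. The SOX2 lists held nothing there in replicate 1 and folds of 4.72 and 6.53 in the others. Within Slc38a4, an amino acid transporter gene, chr15:97023641-97025115 had β-catenin folds of 50.05, 20.1 and 76.5 and a single SOX2 peak of fold 6.59 in replicate 3. Its window, printed above, is a tandem repeat that holds the TCF sequence 3 times. Sites near Bmper, chr9:23045202-23046266, and at the promoter of Amotl2, chr9:102717450-102717980, had β-catenin folds of 59.9, 17.7 and 52.3 and of 38.4, 16.5 and 26.4. The full SOX2 lists held folds of 4.24 and 9.01 near Bmper in replicates 1 and 3 and no peak in replicate 2. At Amotl2 they held 4.31 and 6.91 in replicates 2 and 3 and no peak in replicate 1. The replicate 3 peaks ranked 4539 near Bmper and 3598 at Amotl2, past the end of the equal-length list. TCF7L1 and TCF7L2 were present in 3 of 3 libraries at all 4 sites.

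The strongest shared sites lay near Epha1, Med13l, Chn2 and Lcor. The site within Chn2, chr6:54096111-54097607, was the top SOX2 peak in replicates 2 and 3, with folds of 95.8, 169.1 and 168.9. Its β-catenin folds were 95.6, 45.0 and 95.5. Near Med13l, chr5:119055161-119055982 had SOX2 folds of 60.8, 86.4 and 82.8 and β-catenin folds of 64.6, 23.4 and 75.8. All 4 held SOX2, β-catenin and each TCF/LEF factor in 3 of 3 libraries of every list examined.

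How many β-catenin sites lacked SOX2 depended on how deep the SOX2 lists were read. β-catenin was present in all 3 of its equal-length lists at 1733 sites when merged on their own. Against SOX2 lists of 3423 peaks, 490 of these sites (28.3%) held no SOX2 library and 485 (28.0%) held all 3. Against SOX2 lists of 20000 peaks, 121 sites (6.98%; 95% Wilson interval 5.87 to 8.28, counting error only) held none and 814 (47.0%) held all. Against the full lists, 14 sites (0.808%; 0.482 to 1.35) held none and 1109 (64.0%) held all. SOX2 replicate 3 decided most of this: its 20000 strongest peaks met 90.4% of the sites, against 66.1% for replicate 1 and 56.9% for replicate 2. Without it the shares with no SOX2 rose to 24.4% and 10.2%. Without β-catenin replicate 2 they were 12.5% and 2.35%. In the full lists the share was 1.62% without SOX2 replicate 2, 1.65% without β-catenin replicate 1 and 1.62% without β-catenin replicate 3. Of all 9602 merged sites, some of which come from the SOX2 lists themselves, 18.7% held no SOX2 library against lists of 20000 peaks. There 28.9% held all 3. Against the full lists these shares of all merged sites were 8.97% and 43.0%.

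**Figure D3:**
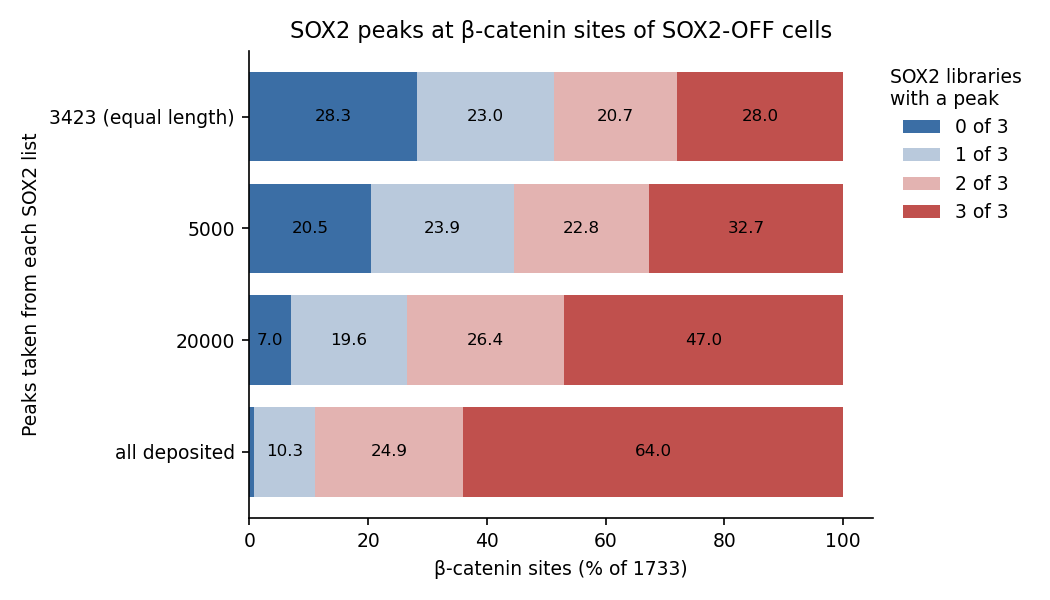
The 1733 β-catenin sites of SOX2-OFF cells (% of sites) by the number of SOX2 libraries with a peak, as SOX2 lists are read to 3423, 5000 or 20000 peaks or in full. The share with no SOX2 library falls from 28.3% to 0.808%, and the share with all 3 rises from 28.0% to 64.0%.

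The 14 sites with no SOX2 peak in any full list were named after their values were seen. The one with the best rank in β-catenin replicate 2 was the promoter of Tcf7, which encodes a TCF factor that is itself a WNT target, at chr11:52283031-52283538, with β-catenin folds of 20.0, 14.2 and 32.4. It held a TCF sequence and TCF7L2 in 3 of 3 libraries. SOX2 was absent from this site also in the lists of 20000 peaks of CEpiLC, SOX2-ON and naive ESC. A separate site 3553 bp from the same gene start, chr11:52285961-52287149, was among the strongest of SOX2 alone, with folds of 32.2, 39.3 and 47.7. In the full β-catenin lists that site held folds of 9.05 and 6.63 in replicates 1 and 3 and no peak in replicate 2. Other sites of the 14 lay within Zbtb20, with β-catenin folds of 11.9, 11.5 and 29.2, near Pax2, with 18.8, 4.77 and 21.2, and at the promoter of Kremen2, a receptor for DKK proteins, with 9.24, 4.59 and 15.9.

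Loci were then read by gene, as the gene body with 10 kb upstream, for 73 genes in 5 lists. Over all 21951 protein-coding genes, 7.3% of loci held SOX2 and 6.69% held β-catenin in at least 2 of 3 equal-length lists. Loci differ in length, and longer loci can hold more peaks. The median locus was 40.5 kb in the WNT list and 14.3 to 23.7 kb in the other lists, against 27.4 kb for all genes. Counts of genes are given with no test, since genes were listed with earlier results known. Folds of different antibodies and libraries have no common scale, so the order of SOX2 and β-catenin folds at a locus is a description.

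Among the 14 genes of WNT feedback, β-catenin was present at 11 and SOX2 at 8. At Sp5, a direct WNT target that encodes a zinc finger factor, the highest β-catenin folds were 100.8, 50.2 and 131.9. Its highest SOX2 folds were 28.1, 15.0 and 66.6. Both summits lay at the Sp5 promoter, chr2:70474077-70476414, with a SOX and a TCF sequence. At Axin2, the scaffold of the β-catenin destruction complex and a negative feedback gene, β-catenin folds at the promoter were 53.2, 28.2 and 66.2 and SOX2 folds 6.73, 7.05 and 11.8. Lef1 and Znrf3, the latter a ubiquitin ligase that removes WNT receptors, had the same order, with β-catenin folds of 48.7, 21.4 and 56.2 and of 66.8, 22.5 and 65.9. The strongest SOX2 folds there were 6.08, 17.3 and 17.9 and 13.9, 9.69 and 22.7.

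Lgr5, a receptor for R-spondins, had SOX2 folds of 22.8, 14.4 and 51.1 at the strongest and β-catenin folds of 21.8, 4.80 and 22.7. Promoters of Dkk1, a secreted WNT antagonist, and of Ccnd1, which encodes cyclin D1, were sites of β-catenin alone. At Dkk1 β-catenin folds were 25.1, 3.82 and 24.0, and the full SOX2 lists held folds of 5.24 and 7.77 there in replicates 1 and 3 and no peak in replicate 2. Elsewhere in the Dkk1 locus SOX2 was present in 2 of 3 equal-length lists, with highest folds of 11.96, 9.86 and 13.9 in the full lists. At Ccnd1 they were 17.5, 9.59 and 22.5, and SOX2 in the full lists reached 5.63 and 8.19 in replicates 2 and 3 with no peak in replicate 1. The locus of Rnf43, a partner of Znrf3, held β-catenin in 3 libraries and SOX2 in 0, as did Ccnd1. Over all genes 0.815% of loci had that pattern.

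Of the 14 early streak genes, SOX2 was present at 6 and β-catenin at 5. At Lefty1 and Lefty2, inhibitors of Nodal signalling, SOX2 folds were the higher, at 53.3, 64.2 and 106.6 for Lefty1 and 41.7, 66.1 and 59.0 for Lefty2. β-catenin at Lefty1 reached 11.9 and 10.3 in replicates 1 and 3 with no peak in replicate 2, and at Lefty2 it reached 13.0, 6.77 and 13.98. At Eomes, a T-box factor of mesendoderm, 2 sites upstream were held by β-catenin alone. The stronger, chr9:118468075-118468972, had β-catenin folds of 34.6, 6.40 and 44.2 and a SOX2 peak in replicate 3 only, of fold 5.38. At the other, chr9:118471330-118471756, the full SOX2 lists of SOX2-OFF held folds of 4.22 and 9.27 in replicates 1 and 3 and no peak in replicate 2. SOX2 met neither Eomes site in any list of 20000 peaks of CEpiLC, SOX2-ON or naive ESC. Nodal, a ligand of the TGFβ family, held both at chr10:61415521-61416399, with SOX2 folds of 10.2, 15.6 and 14.2 and β-catenin folds of 17.1, 11.1 and 33.3.

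Tdgf1, a Nodal co-receptor, had SOX2 folds of 11.05, 12.7 and 26.7 and β-catenin folds of 8.72, 5.16 and 16.8. Mixl1 had β-catenin folds of 10.7 and 19.3 in replicates 1 and 3. Foxa2 and Gsc, regulators of axial mesendoderm, held SOX2 in 2 equal-length lists each and β-catenin in 0. In the full lists the highest SOX2 folds were 7.03, 5.44 and 16.9 at Foxa2 and 6.86, 7.51 and 13.4 at Gsc. The highest β-catenin folds in replicates 1 and 3 were 8.84 and 10.2 at Foxa2 and 6.80 and 3.32 at Gsc, with no peak in replicate 2.

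Genes of the primitive streak and caudal epiblast held SOX2 at 7 and β-catenin at 8 of 20. At the promoter of T, which encodes Brachyury, chr17:8433578-8434872, β-catenin folds were 58.8, 14.02 and 53.8. SOX2 folds at that site were 5.72, 4.66 and 14.8, and every β-catenin library but replicate 2 was above all of them. The site held a SOX and a TCF sequence and all 3 TCF/LEF factors in 3 of 3 libraries. Elsewhere in the T locus SOX2 reached higher folds, of 6.63, 18.4 and 24.6, and the locus held SOX2 in 3 of 3 equal-length lists. Within an intron of Cdx2, a posterior homeobox gene, chr5:147304015-147305713 held SOX2 folds of 13.2, 13.5 and 21.7 and β-catenin folds of 36.4, 9.83 and 48.5. Wnt3 and Evx1 held both targets as well, with highest β-catenin folds of 29.1, 9.44 and 24.9 and of 43.7, 9.27 and 51.1.

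Tbx6, Msgn1 and Mesp1, regulators of paraxial and early mesoderm, held β-catenin in replicates 1 and 3 and no peak in replicate 2. The folds were 30.1 and 25.7 at Tbx6, 27.4 and 33.1 at Msgn1 and 19.6 and 15.3 at Mesp1. Their highest SOX2 folds were 3.81, 7.15 and 15.2 at Tbx6, 5.40, 5.97 and 9.62 at Msgn1 and 4.52, 4.76 and 5.60 at Mesp1. Hoxb1 had SOX2 folds of 27.3, 31.1 and 47.8 and β-catenin folds of 17.4 and 17.5 in replicates 1 and 3. Meis3 held neither target in the equal-length lists.

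Pluripotency genes held SOX2 at 7 and β-catenin at 8 of 15, and 6 held both at the same merged site. At the Pou5f1 promoter, whose gene encodes OCT4, chr17:35504723-35505635 had SOX2 folds of 33.9, 44.7 and 86.2 and β-catenin folds of 35.8, 8.21 and 38.0. It held a SOX sequence and no TCF sequence, with TCF7L1 in 3 of 3 libraries. At Nanog the highest SOX2 folds were 20.8, 26.8 and 30.5 and the highest β-catenin folds 12.2, 6.58 and 19.4. Dppa3 had 16.3, 29.7 and 35.2 for SOX2 and 12.7, 8.56 and 15.0 for β-catenin. Klf2, a factor of the naive state, had 9.02, 11.04 and 8.97 for SOX2 and 10.97, 6.54 and 5.06 for β-catenin.

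At Esrrb SOX2 folds were 11.4, 22.2 and 18.1 and β-catenin folds 15.2, 9.22 and 11.4. At Klf4 and Tfcp2l1 the β-catenin folds were 24.0, 8.74 and 21.3 and 16.1, 5.26 and 11.7, and the SOX2 folds 6.33, 14.5 and 14.6 and 6.31, 7.81 and 4.79. Prdm14 held β-catenin in 2 equal-length lists, and Sall4 held SOX2 in 2.

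Of the 10 neural and SOXB1 genes, 9 held neither target in any equal-length list, which was also the case at 79.2% of all protein-coding loci, so this count was near the background. The exception was Nes, with SOX2 in 3 libraries and β-catenin in 0, a pattern of 1.46% of all protein-coding loci. Nes, which encodes the neural intermediate filament nestin, had SOX2 folds of 29.5, 62.5 and 27.2 in an intron at chr3:87974129-87974926. β-catenin folds over that site were 5.02 and 3.36 in replicates 1 and 3, with no peak in replicate 2. At the Sox2 locus the highest SOX2 folds were 6.12, 7.86 and 6.48, and the highest β-catenin folds 6.10 and 4.62 in replicates 1 and 3.

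**Figure D4:**
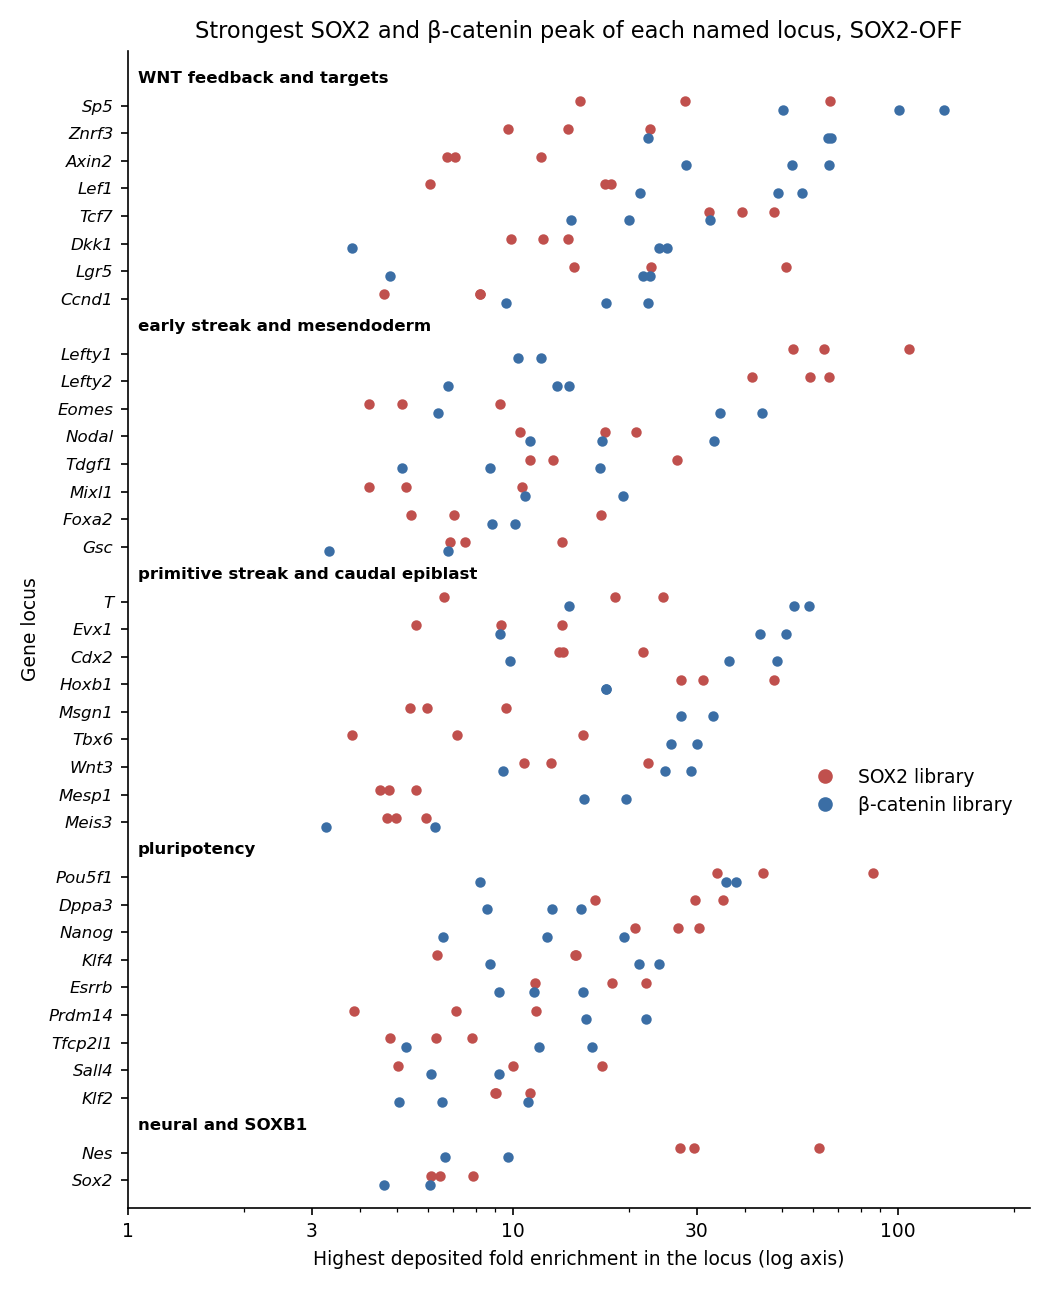
Highest deposited fold enrichment (log axis) of any SOX2 peak (red) or β-catenin peak (blue) in each named locus, one point per SOX2-OFF library and no point where a library had no peak. β-catenin is to the right at Sp5, Axin2, T and Eomes in replicates 1 and 3, and SOX2 is to the right at Lefty1, Lefty2, Hoxb1 and Nes.

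The SOX2 sites that remained were mostly sites of wild-type CEpiLC. With lists of 20000 peaks, SOX2 was present in 3 of 3 SOX2-OFF libraries at 3065 sites. Of these 2710 (88.4%) were met by SOX2 in at least 2 of 3 CEpiLC libraries, 1959 (63.9%) in SOX2-ON and 1864 (60.8%) in naive ESC, and 66 (2.15%) were met by no library of these conditions. At the 518 sites of SOX2 alone the shares were 96.1%, 73.7% and 76.1%, against 53.0%, 33.9% and 32.0% of all merged sites of the equal-length lists. CEpiLC thus had the highest share over all merged sites as well, and no share over all sites was taken to set beside the 3065. At 68 of the 518 sites (13.1%) SOX2 was in at least 2 CEpiLC libraries and in 0 of 3 SOX2-ON libraries, and the reverse held at 1. The other classes leaned the same way, with 79 (16.1%) against 10 at sites of β-catenin alone and 41 (8.40%) against 1 at shared sites. The lean was thus not particular to the 518, and no share over all merged sites was taken for it.

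Read from the other side, 53.3% of the SOX2 sites of SOX2-ON cells were in no SOX2-OFF list of 20000 peaks. SOX2 was present in 3 of 3 SOX2-ON lists of 20000 peaks at 7696 sites. SOX2-OFF libraries met 27.1%, 35.4% and 34.9% of them, CEpiLC libraries 51.1%, 41.7% and 43.9%, and naive ESC libraries 43.6%, 56.6% and 53.6%. SOX2-OFF was below every library of both, and its mean fell by 13.1 and 18.8 percentage points against theirs (two-sided exact permutation p = 0.1 each, adjusted p = 0.1). With all deposited SOX2 peaks the difference, SOX2-OFF minus CEpiLC, was -6.06 points (exact permutation p = 0.9), and without replicate 1 of each group it was -7.77 points (p = 0.333, exact). With SOX2 lists of 5000 peaks it was -5.14 points (exact permutation p = 0.2). In the full lists, 2188 sites (28.4%) lay outside every SOX2-OFF library.

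SOX2-ON sites that kept SOX2 differed from those that did not. At the 4100 sites met by 0 of 3 SOX2-OFF libraries, 75.9% held a SOX sequence, 4.29% were promoters and the GC content was 44.3%. At the 1521 sites met by 3 of 3, 64.6% held a SOX sequence, 17.9% were promoters and the GC content was 51.3%. β-catenin was in at least 2 of 3 SOX2-OFF equal-length lists at 13 of the former (0.317%) and at 577 of the latter (37.9%). The median best rank in the SOX2-ON lists was 3084 and 1746, so kept sites were also the stronger ones with doxycycline, and the part of rank in the other values was not tested.

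The share of SOX2 peaks with a SOX sequence had its lowest mean in SOX2-OFF. The share under SOX2 peaks of equal-length lists was 44.9% ± 2.57 in SOX2-OFF, 57.2% ± 3.71 in CEpiLC, 66.7% ± 1.41 in naive ESC and 74.7% ± 1.78 in SOX2-ON (SD, n = 3). SOX2-OFF overlapped none of the others (exact permutation p = 0.1 each, adjusted p = 0.171 over 12 comparisons). Under β-catenin peaks the share was 33.0% ± 1.37 in SOX2-OFF and 32.0% ± 1.78 in CEpiLC, which overlapped (exact permutation p = 0.7), against 56.3% ± 3.35 in SOX2-ON and 50.6% ± 0.0337 in naive ESC. The order of SOX share under β-catenin thus had SOX2-OFF and CEpiLC together at the bottom. The excess of SOX2 over β-catenin peaks in the SOX sequence was 11.9 points in SOX2-OFF and 25.2 in CEpiLC. SOX2-OFF minus CEpiLC, that was -13.3 points, with an exact permutation p of 0.035 over 400 assignments, which did not pass adjustment over 9 comparisons (adjusted p = 0.315).

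On average over SOX2 libraries, β-catenin peaks met SOX2 less often in SOX2-OFF than in the other conditions. Averaged over the 3 SOX2 lists of 20000 peaks of the same condition, 55.0%, 49.9% and 56.5% of the peaks in the β-catenin equal-length lists overlapped a SOX2 peak in SOX2-OFF. The shares were 73.6%, 67.02% and 64.8% in CEpiLC, 75.2%, 73.8% and 67.8% in SOX2-ON and 76.4%, 73.9% and 76.5% in naive ESC. All 3 SOX2-OFF libraries were below all 9 others, 53.8% ± 3.44 against 72.1% ± 4.39, a difference of -18.3 points (two-sided exact permutation p = 0.00455, the smallest of 220 assignments). Against a single condition the differences were -14.6 points for CEpiLC, -18.5 for SOX2-ON and -21.8 for naive ESC (exact permutation p = 0.1 and adjusted p = 0.1 each, the smallest 3 against 3 libraries allow). Each of these values averages the same 3 SOX2 lists of its condition, so these SDs and p-values leave out the spread between SOX2 libraries. Taken per SOX2 library instead, as the mean over the 3 β-catenin libraries, the shares in SOX2-OFF were 47.3%, 41.9% and 72.2% for replicates 1 to 3, and those of the other conditions ranged from 61.01% to 83.9%. SOX2 replicate 3 thus lay among the other conditions. On this unit the means were 53.8% ± 16.2 (SD, n = 3) and 72.1% ± 7.24 (SD, n = 9), with an exact permutation p of 0.0227 for the pooled difference. Against a single condition the groups overlapped, with exact permutation p = 0.3 for CEpiLC and 0.2 for SOX2-ON and for naive ESC. With SOX2 lists of 5000 peaks, again per β-catenin library, the difference from CEpiLC was -2.11 points and the groups overlapped (exact permutation p = 0.5), and the pooled difference was -8.20 points (p = 0.0455, exact). The pooled difference was -16.3 points without replicate 1 of every group (p = 0.0714, exact), -10.2 without replicate 2 and -27.7 without replicate 3 (p = 0.0357 each, exact).

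**Figure D5:**
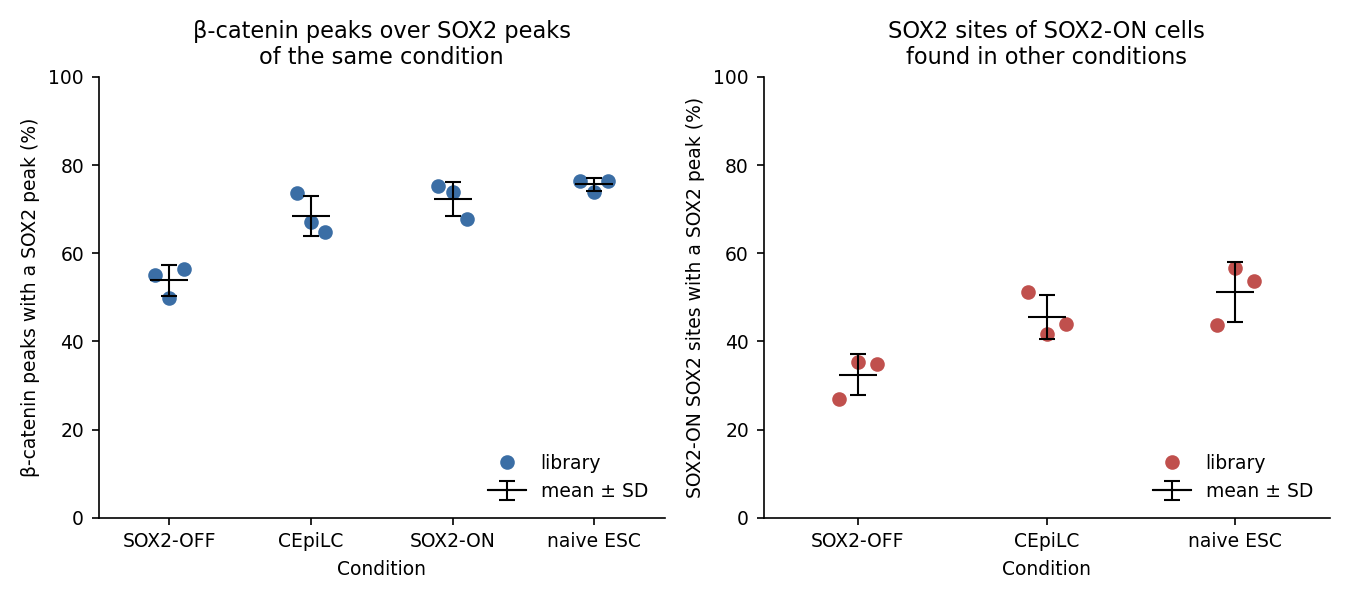
Left, β-catenin peaks (% of 3423) that overlap a SOX2 peak of the same condition, one point per β-catenin library, with mean ± SD. Right, SOX2 sites of SOX2-ON cells (% of 7696) met by each SOX2 library of the other conditions. Each point on the left averages over the 3 SOX2 lists of its condition. SOX2-OFF lies lowest in both, at 49.9% to 56.5% and at 27.1% to 35.4%.

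The sites of β-catenin alone were then read in the other conditions. SOX2 was in 0 of 3 lists of 20000 peaks at 36.5% of them in CEpiLC, 64.7% in SOX2-ON and 69.0% in naive ESC, against 32.8%, 53.6% and 56.0% of all merged sites. At 63.5% of them at least 1 CEpiLC library held SOX2. SOX2 was in 0 of 3 libraries in all of these conditions at 124 of 490 sites (25.3%). The share was 0.193% of the sites of SOX2 alone and 1.02% of the shared sites. In at least 2 of 3 libraries of any other condition SOX2 was found at 242 sites (49.4%), against 97.3% and 97.5%. Those classes were chosen for holding SOX2, and no share over all merged sites was taken for these patterns. β-catenin itself was in at least 2 of 3 equal-length lists at 64.7% of them in CEpiLC, 43.3% in SOX2-ON and 29.4% in naive ESC, against 27.1%, 19.5% and 15.4% of all merged sites. At the shared sites the values for β-catenin were 88.9%, 82.4% and 65.8%. The p-values above were taken over libraries labelled as biological replicates. For β-catenin peaks with a SOX2 peak, those taken per β-catenin library leave out the spread between SOX2 libraries. The pooled comparison there also set 9 libraries of different conditions together, so it mixes differences between conditions into the spread. Per the study's methods, the triplicates of each condition came from separate experiments. Whether SOX2 and β-catenin libraries of the same number shared a culture is not stated there.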

How the data were processed

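Peak lists of 33 libraries were used: SOX2 and β-catenin in 4 conditions, and LEF1, TCF7L1 and TCF7L2 in SOX2-OFF. Per the study's methods the authors ran the nf-core ChIP-seq pipeline with BWA and called narrow peaks with MACS per library, without pooling, on cells fixed with DSG and formaldehyde; the labels name MACS2 and mm10. Deposited values were the fold (a ratio of signal over local background), the −log10 p-value and the −log10 q-value of each peak, as made by the authors; reads and depth were not used here. All 12175735 deposited peaks lay within GRCm38.p6 chromosomes, so RefSeq sequence and GENCODE M21 protein-coding genes were applied to them.

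Peaks were ranked by deposited −log10 p-value. Equal-length lists held the top 3423; SOX2 lists were read to 20000 where stated. Peaks sharing at least 1 bp were merged. Sequences were searched on both strands wholly within 100 bp of a summit, with background windows 5000 bp to each side. Groups of 3 libraries were compared with exact permutation tests over libraries and Benjamini-Hochberg adjustment in each family (Python 3.11.15, numpy 2.4.6, pandas 2.3.3, scipy 1.17.1; figures with matplotlib 3.10.9). The scripts were tested on simulated data.

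The members, gene lists and tests were chosen with earlier results of these data known. The comparisons of SOX share between conditions, the comparison of target differences between conditions and the OCT-SOX letters were added after the data had been seen. Named sites were the 4 of each class with the lowest worst rank over the libraries that define it, leaving out chromosomes 18, Y and M. Named loci were those with a peak in at least 2 of 3 libraries of a target, up to 8 a list by the higher median fold, with Sox2, T, Nodal, Cdx2, Meis3 and Klf2 always named; Sox2 and Meis3 did not meet the first rule. Replicate numbers were not taken to pair the libraries, since shared cultures are not stated. Deviations of same-numbered SOX2 and β-catenin libraries from their group means over merged sites correlated at 0.0148, 0.0879 and 0.0894. Those of different-numbered libraries correlated at -0.0883 to 0.0196, so replicates 2 and 3 lay nearer to the library of their own number. Whether libraries of the same number shared a culture or batch was not tested. Alternatives were shorter and longer lists, ranking by fold, stricter overlap, other windows, each library left out, values per SOX2 library (added after the data had been seen), and the replicate block.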

Additional observations from a re-analysis of the deposited data

How the results depend on the processing

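Of 212 alternative values, 172 kept their direction and side of the threshold of 0.05 (for counts and shares, stayed near the reported value). Tests of 3 against 3 libraries or fewer could not pass that threshold under any setting, so for them the tally speaks of direction only. The difference from CEpiLC in β-catenin peaks with a SOX2 peak counted as kept though it went from -14.6 to -2.11 points with SOX2 lists of 5000 peaks. Among the 17 results with a test, 145 of 149 alternatives kept the direction. Reading all deposited peaks turned the SOX share difference to -0.578 points and the promoter share difference to -1.02 points. The SOX share of β-catenin peaks, SOX2-OFF minus CEpiLC (0.993 points), was -0.533 points with lists of 1000 peaks and ranged from -0.190 to 2.72 with a replicate left out; the causes were not tested. The sites of SOX2 alone, of β-catenin alone and of both numbered 219, 244 and 117 with lists of 1000 peaks, 1213, 1222 and 1096 when 2 of 3 libraries sufficed, 1719, 121 and 822 with SOX2 lists of 20000 peaks, and 946, 2169 and 1549 with lists of 20000 peaks without β-catenin replicate 2. With a library left out they ranged from 555 to 798, 530 to 953 and 496 to 758. Without replicate 1 of both targets, a setting chosen after seeing the data, sites of SOX2 alone numbered 857 and β-catenin sites without SOX2 made up 10% (lists of 20000) and 1.8% (full lists). β-catenin sites without SOX2 in lists of 20000 peaks made up 0.485% with β-catenin lists of 1000 peaks, 14.2% when 2 of 3 libraries sufficed and 32.4% with longer lists without β-catenin replicate 2, and 7.79% to 24.4% with a library left out. In full SOX2 lists these were 0%, 3.01%, 11.3% and 0.923% to 10.2%. The pooled difference in β-catenin peaks with a SOX2 peak ranged from -27.7 to -10.2 points with a replicate number left out, and without replicate 1 (-16.3 points) its exact permutation p was 0.0714. Taken per SOX2 library, a unit chosen after seeing the data, it had an exact permutation p of 0.0227, and the difference from CEpiLC p = 0.3. The SOX share difference was 4.49 points and the promoter share difference 5.54 points (exact permutation p = 0.3) with lists of 20000 peaks without β-catenin replicate 2, and the SOX share difference 5.45 points in wider windows around summits. The replicate numbers were not shown to pair the libraries. With the replicate block the SOX share difference stayed 11.9 points with an exact sign-flip p of 0.25, the smallest 3 pairs allow. The pooled difference had an exact permutation p of 0.0156 and stayed below the threshold, which the tests of 3 against 3 libraries could not pass. Each SOX2 library correlated best with the β-catenin library of its own number, but β-catenin replicate 1 did so with SOX2 replicate 3. With 3 libraries a group, no exact permutation test of 3 against 3 can go below p = 0.1, and depth was not known.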
